A study of Mus musculus with 24 samples.

Results

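The transcripts of 9 genes of the muscle acetylcholine receptor and of the muscle's response to loss of its nerve were followed in mouse gastrocnemius. Chrna1, Chrnb1, Chrnd, Chrne and Chrng encode the subunits of the receptor. Musk encodes the receptor tyrosine kinase that gathers these receptors under the nerve ending, Ncam1 a cell adhesion molecule, Runx1 a transcription factor and Scn4a the main voltage-gated sodium channel of skeletal muscle. The 9 genes were chosen by name and by no threshold on their values, though with earlier results of these data known, and all 9 were among the 54532 genes counted in each sample.

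RNA sequencing was done on the left gastrocnemius of wild-type C57/BL6 mice in 6 groups of 4 samples, from 3 conditions in each of the 2 sexes. Controls were sedentary and received 2 injections of 20 µl saline of pH 7.2 ± 0.1 into that muscle, 5 days apart. The sedentary pain groups received solution of pH 5.0 ± 0.1 in the same volume and at the same spacing, with 6 min of electrically evoked contractions of the muscle right before the second injection. The active pain groups had running wheels for 8 weeks and then went through the same pain procedure. All samples carry the time label 24 h, and the labels do not give the animals' age. Acid and contraction always came together and cannot be told apart. Running was compared within the pain procedure, and the labels name no running animals free of pain. The labels do not state that replicates are separate animals, and the p-values below measure the spread between these samples, whatever its source.

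As background, the motor nerve ending releases acetylcholine onto a receptor made of α, β and δ subunits together with either ε in adult muscle or γ in fetal muscle. Agrin from the nerve acts through LRP4 and MuSK to hold the receptors at the junction, where the nuclei of the fibre transcribe the subunit genes. When a muscle loses its nerve, the genes for the α, β, γ and δ subunits, MuSK, NCAM and RUNX1 are known to be transcribed along the whole fibre. Basic helix-loop-helix factors such as myogenin bind E-boxes (CANNTG) in several of these promoters, and ETS factors bind the N-box (CCGGAA) of the ε subunit gene in nuclei under the synapse.

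RefSeq promoter windows (GRCm38.p6, from 250 bases before to 50 after the transcription start) were found for 7 of the 9 genes, with a pair of starts for Runx1. Chrnd and Ncam1 had none in the table used. The windows of 5 genes are shown because these genes carried differences described below or, for Chrna1, stand for the receptor's common α subunit. Each is written 5′ to 3′ on the gene's own strand, with E-boxes (CANNTG), N-boxes (CCGGAA) and Runx cores (TGTGGT) in capitals, searched on both strands. The locations are chr2:73580289-73580588 on the minus strand for Chrna1, chr11:69795888-69796187 minus for Chrnb1, chr11:70619145-70619444 minus for Chrne, chr4:58285712-58286011 plus for Musk and chr16:92826025-92826324 minus for the first start of Runx1.
Chrna1: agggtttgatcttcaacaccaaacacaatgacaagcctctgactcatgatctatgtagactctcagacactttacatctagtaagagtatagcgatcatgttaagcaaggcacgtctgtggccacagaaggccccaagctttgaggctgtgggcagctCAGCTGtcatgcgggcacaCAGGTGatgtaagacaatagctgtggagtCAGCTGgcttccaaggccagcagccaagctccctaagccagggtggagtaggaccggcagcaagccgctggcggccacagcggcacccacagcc
Chrnb1: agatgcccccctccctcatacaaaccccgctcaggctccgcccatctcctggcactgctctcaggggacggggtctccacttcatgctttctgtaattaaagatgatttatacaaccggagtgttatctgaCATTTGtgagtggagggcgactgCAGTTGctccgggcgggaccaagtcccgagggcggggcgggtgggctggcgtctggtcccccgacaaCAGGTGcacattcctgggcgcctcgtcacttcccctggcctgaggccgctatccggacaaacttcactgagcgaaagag
Chrne: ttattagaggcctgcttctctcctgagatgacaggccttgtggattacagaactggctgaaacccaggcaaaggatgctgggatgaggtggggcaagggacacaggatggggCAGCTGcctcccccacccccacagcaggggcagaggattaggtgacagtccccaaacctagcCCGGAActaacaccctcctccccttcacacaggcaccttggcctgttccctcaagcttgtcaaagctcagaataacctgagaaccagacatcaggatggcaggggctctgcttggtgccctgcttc
Musk: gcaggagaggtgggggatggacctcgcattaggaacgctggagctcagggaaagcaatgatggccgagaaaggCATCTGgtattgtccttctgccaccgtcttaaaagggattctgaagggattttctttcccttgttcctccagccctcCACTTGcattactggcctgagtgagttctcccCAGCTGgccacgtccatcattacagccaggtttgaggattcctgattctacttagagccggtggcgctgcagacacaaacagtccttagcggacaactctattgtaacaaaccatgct
Runx1: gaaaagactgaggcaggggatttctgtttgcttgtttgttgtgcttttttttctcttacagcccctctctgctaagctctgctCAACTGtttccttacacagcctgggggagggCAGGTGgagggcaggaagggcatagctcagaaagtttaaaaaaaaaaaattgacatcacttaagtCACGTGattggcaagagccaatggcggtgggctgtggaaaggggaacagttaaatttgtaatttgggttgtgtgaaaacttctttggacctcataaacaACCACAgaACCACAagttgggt

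The windows of Chrna1, Chrnb1, Chrng and Musk each held 3 E-boxes and neither of the other motifs. Chrne differed from the other subunit genes with 1 E-box, whose first base lies 138 bases before the start, and 1 N-box (CCGGAA) 76 bases before it. In Runx1 the first start had 3 E-boxes and a pair of Runx cores on the opposite strand, read as ACCACA after the start, and the second start had 1 N-box. Scn4a held none of the 3 motifs in its window, which says only that these letters are not there. An E-box is common: of 32817 RefSeq promoters of this length 72.3% held at least 1, whereas 14.9% held the N-box and 16.8% the Runx core. These matches are letters in a sequence, not measured binding sites.

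Libraries held 17612139 to 34039699 counts, and levels are given as CPM, counts scaled to a common library size with factors from the trimmed mean of M-values. Skeletal muscle markers were abundant in every library, with summed levels of 12 muscle fibre markers from 114500 to 243200 CPM, led by Myh4. Leukocyte markers differed strongly between libraries. The summed level of 12 such genes, led by Lyz2, ranged from 61.8 to 148 CPM among control females and from 153 to 336 CPM among active females. Sedentary females with pain had 353, 559, 3256 and 4013 CPM in replicates 1 to 4. In males it was 47.2 to 99.1 CPM in controls, 672, 92.4, 154 and 339 CPM in sedentary pain and 140 to 383 CPM in active pain. Male sedentary pain replicate 1 and male active pain replicate 2, the highest of their groups here, also stood apart in Runx1, and the former in Scn4a, and values without them are given where they matter. The mitochondrial share of counts was lower in the same libraries, 4.53% and 5.97%, against 10.4% to 11.3% and 8.14% to 12.6% in the others of their groups. It was 8.59% to 11.02% in female controls and 8.22%, 3.85%, 5.86% and 2.75% in female sedentary pain replicates 1 to 4, and its part in the results below was not tested. Bulk RNA cannot tell fewer cells of a type from less RNA per cell.

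In females with sedentary pain, 5 of the 8 testable genes differed from controls in an edgeR quasi-likelihood test adjusted by the Benjamini-Hochberg method over all genes. Chrnb1, Chrnd and Runx1 rose, and Chrne and Scn4a fell. Chrna1, Musk and Ncam1 did not pass the threshold of 0.05, and Chrng had too few counts to be tested within a sex. In this comparison 33.5% of all 14511 tested genes passed, 19.6% higher and 13.9% lower, and the median log2 fold change was 0.46 over the 8 genes and -0.02 over all genes. At an unadjusted p under 0.05 there were 6 of the 8 genes and 47.6% of all genes. Whether these counts exceed the background was not tested. Without sedentary pain replicate 3 or 4 or control replicate 1, 2 or 4, the 2 genes Chrnb1 and Runx1 passed, against 16.9% to 33% of all genes, and without active pain replicate 4 a total of 3 did, against 28.6%.

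**Figure D1:**
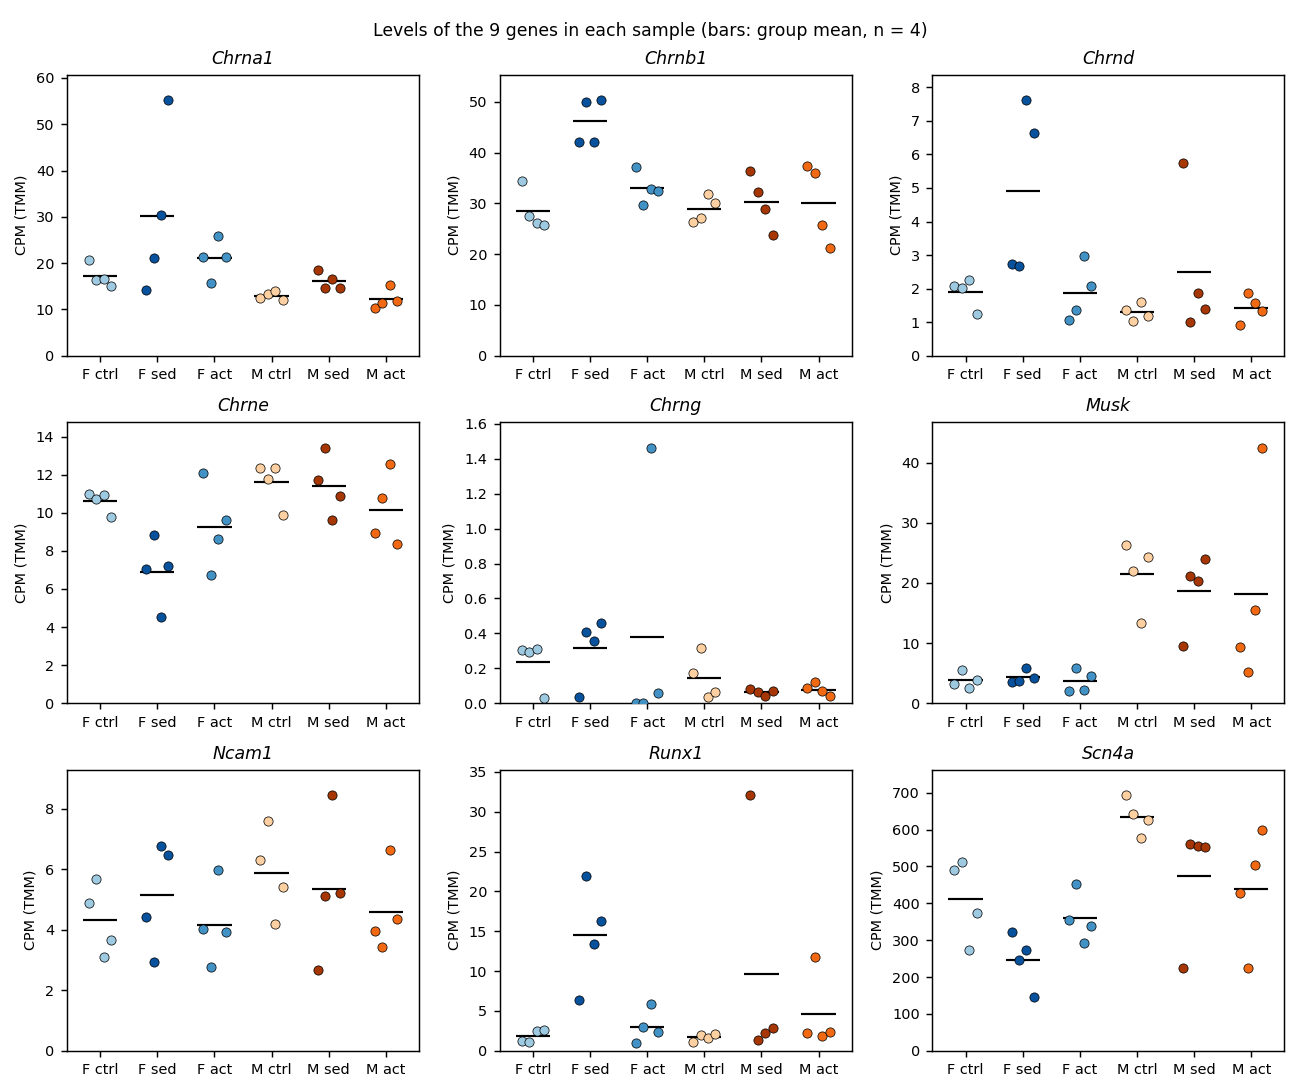
Level of each of the 9 genes in CPM (vertical axis, linear, from 0) in the 24 samples, by group on the horizontal axis (F female, M male, ctrl control, sed sedentary pain, act active pain). Points are samples and bars are group means (n = 4). Chrnb1 and Runx1 lie higher and Chrne lower in all 4 female sedentary pain samples than in any female control, and Musk is higher in males.

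Chrnb1, the β subunit gene (chromosome 11, 69784036 to 69795943), had 34.4, 27.4, 26.2 and 25.7 CPM in female control replicates 1 to 4. The corresponding female sedentary pain samples had 42.2, 49.99, 42.1 and 50.4 CPM. All 4 exceeded every control, so the groups did not overlap, which was the case for 26.3% of all tested genes. The rise was 0.68 ± 0.12 (SE) on the log2 scale, or 1.60-fold (adjusted p = 0.00372). It passed the threshold whichever of the 12 female samples was left out, with log2 values from 0.63 to 0.80.

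Chrnd, the δ subunit gene (chromosome 1, 87190607 to 87200070), was expressed at a low level, with 21 to 235 counts per library. Female controls had 2.08, 2.02, 2.27 and 1.25 CPM and sedentary pain samples 2.72, 2.69, 7.62 and 6.64 CPM. The groups did not overlap, but replicates 1 and 2 lay just above the highest control and replicates 3 and 4 far above it. The rise was 1.36 ± 0.41 on the log2 scale (adjusted p = 0.0283). It missed the threshold without sedentary pain replicate 3 (adjusted p = 0.0622) or 4 (0.0778) and without control replicate 1 (0.0551), 2 (0.0597) or 4 (0.0738). Replicates 3 and 4 were also the samples with the highest leukocyte marker sums, whose part in the Chrnd level was not tested.

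The α subunit gene Chrna1 (chromosome 2, 73563215 to 73580338) had 20.7, 16.3, 16.5 and 15.0 CPM in female control replicates 1 to 4. With sedentary pain it had 14.2, 21.1, 30.4 and 55.2 CPM. Replicate 1 lay below every control and replicate 4 far above. The log2 difference was 0.80 ± 0.33 and did not pass (adjusted p = 0.0773). It fell to 0.36 (adjusted p = 0.295) without replicate 4 and was 1.05 (adjusted p = 0.012) without replicate 1, DESeq2 gave an adjusted p of 0.0495, and a fit of all 24 samples gave 0.82 (0.0243).

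Chrne, the ε subunit gene of the adult receptor (chromosome 11, 70614883 to 70619216), went the other way. Female controls had 11.01, 10.7, 10.9 and 9.75 CPM and sedentary pain samples 7.03, 8.82, 4.54 and 7.21 CPM. Every sedentary pain sample lay below every control. The gene fell by 0.64 ± 0.21 on the log2 scale (adjusted p = 0.0369). That call was close to the threshold: it was lost without sedentary pain replicate 3 (adjusted p = 0.0817) or 4 (0.0846), without active pain replicate 3 (0.0523) or 4 (0.0568) and without control replicate 1 (0.0851), 2 (0.0849), 3 (0.0604) or 4 (0.0578), and with only the 2 groups fitted (0.0638). A block by replicate number ended it as well (0.0556).

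Chrng, the γ subunit gene of the fetal receptor (chromosome 1, 87204657 to 87212694, next to Chrnd), was at the limit of detection. It had 0 to 38 counts per library. Female controls held 7, 7, 8 and 1 counts and female sedentary pain samples 1, 7, 11 and 13, equal to at most 0.459 CPM. The largest value of the series, 1.46 CPM from 38 counts, was in female active pain replicate 3, while replicates 1 and 2 of that group had 0 counts, which allows up to 0.147 and 0.106 CPM (3 counts each). In males it had 1 to 9 counts.

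Runx1 (chromosome 16, 92601466 to 92826149) changed most among the 9. Female controls had 1.21, 1.14, 2.42 and 2.66 CPM, and sedentary pain samples had 6.35, 22.0, 13.4 and 16.3 CPM. The lowest sedentary pain sample was above the highest control. The rise was 2.93 ± 0.53 on the log2 scale, or 7.61-fold (adjusted p = 0.00367), and passed without any 1 of the 12 female samples (log2 2.68 to 3.20). RUNX1 is also a factor of blood cells. Leukocyte markers summed to 353, 559, 3256 and 4013 CPM in these 4 samples and to at most 148 CPM in the controls, so both were higher in sedentary pain. Replicate 1 was lowest in both, while replicate 2, with the highest Runx1, had a lower marker sum than replicates 3 and 4. The part of leukocytes in the Runx1 level was not tested.

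Scn4a (chromosome 11, 106318592 to 106353288), which carries the muscle action potential, was the most abundant of the 9. Female controls had 491, 511, 275 and 373 CPM and sedentary pain samples 322, 245, 272 and 145 CPM. The lowest control overlapped the sedentary pain samples. Scn4a fell by 0.76 ± 0.26 on the log2 scale (adjusted p = 0.0419). The call was lost without control replicate 1 (adjusted p = 0.101), 2 (0.112) or 4 (0.0641), without sedentary pain replicate 2 (0.0757), 3 (0.0554) or 4 (0.103), without active pain replicate 1 (0.053) or 4 (0.0554), in a fit of all 24 samples (0.0572) and in one of only the 2 groups (0.0793).

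Musk and Ncam1 showed little difference in females. Musk ranged from 2.58 to 5.47 CPM in controls and from 3.48 to 5.87 CPM in sedentary pain, a log2 difference of 0.17 ± 0.36 (adjusted p = 0.719). For Ncam1 the ranges were 3.09 to 5.68 and 2.92 to 6.78 CPM, with a log2 difference of 0.24 ± 0.31 (adjusted p = 0.557). Both pairs of ranges overlap.

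None of the 5 female changes passed in a fit with 1 surrogate variable, an unlabelled source of variation estimated from the data. In that fit far fewer of all 14511 genes passed than the 33.5% of the main fit, with the number given at the end. There Chrnb1 was at 0.63 (adjusted p = 0.114), Runx1 at 1.76 (0.187), Chrnd at 0.33 (0.903), Chrne at -0.61 (0.456) and Scn4a at 0.11 (0.927), the last with its direction turned. The library names carry a number that no label calls a batch. Split for this comparison at a point chosen here, replicates 1 and 2 had numbers up to 20 and replicates 3 and 4 numbers from 25 on. Within those sets the log2 ratio of the group means of CPM was 0.58 and 0.84 for Chrnb1, 0.40 and 2.02 for Chrnd, -0.46 and -0.82 for Chrne, 3.59 and 2.55 for Runx1 and -0.82 and -0.64 for Scn4a, while Chrna1 was at -0.07 and 1.44.

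Between females with active and with sedentary pain, 3 of the 8 genes differed, and all 3 had risen with sedentary pain. Chrnb1, Chrnd and Runx1 were lower in the active animals. Of all 14511 genes 11.9% passed in this comparison, 9.41% as lower and 2.51% as higher in active pain. Of the 8 genes 4 had an unadjusted p under 0.05, against 32.2% of all genes, and the median log2 difference was -0.38 for the 8 genes and 0.01 for all genes. The comparison shares its sedentary pain samples with the one above, so a group that is high in one is the higher side of both.

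Female active pain samples had 37.1, 29.6, 32.7 and 32.4 CPM of Chrnb1, all below the 42.1 CPM of the lowest sedentary pain sample, a lack of overlap seen for 11.8% of all tested genes. Chrnb1 fell by 0.47 ± 0.12 on the log2 scale (adjusted p = 0.0358). Runx1 had 0.98, 2.93, 5.82 and 2.37 CPM, again without overlap, and fell by 2.23 ± 0.51 (adjusted p = 0.0328). For Chrnd the values were 1.08, 1.38, 2.97 and 2.07 CPM, and replicate 3 reached into the sedentary pain range. It fell by 1.37 ± 0.41, at an adjusted p of 0.0496.

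The 3 calls, though less so the sizes of the differences, depended on single samples. With each of the 12 samples left out in turn the log2 difference ran from -0.55 to -0.44 for Chrnb1, from -1.71 to -1.11 for Chrnd and from -2.79 to -1.98 for Runx1. All 3 calls were lost without active pain replicate 1, 2 or 4 or without sedentary pain replicate 3 or 4, at adjusted p-values of 0.0636 to 0.144, and in those fits at most 0.0204% of all genes passed. Chrnb1 was lost as well without active pain replicate 3 (0.0548) or sedentary pain replicate 2 (0.0533), and Chrnd without control replicate 1 (0.0628), 2 (0.0617), 3 (0.0612) or 4 (0.0598). With only the 2 groups compared in the fit the adjusted p-values were 0.0877 for Chrnb1, 0.107 for Chrnd and 0.0877 for Runx1, with 1 surrogate variable 0.761, 0.898 and 0.824, and with no filter on low counts 0.0808, 0.0651 and 0.0551. The surrogate variable also made the differences smaller, at -0.428 for Chrnb1, -0.569 for Chrnd and -1.265 for Runx1. Runx1 was also lost in a fit of all 24 samples (0.0639). A correction for GC content and length ended the calls of Chrnb1 (0.0639) and Chrnd (0.0572) and gave a rise of Chrne by 0.59 (0.0417). A block by replicate number ended the call of Chrnb1 as well, alone (0.0555) or with that correction (0.0541).

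The other genes did not pass. Chrne had 12.1, 6.74, 8.63 and 9.64 CPM in female active pain, a log2 difference from sedentary pain of 0.45 ± 0.21 (adjusted p = 0.166). Scn4a had 356, 451, 291 and 338 CPM, or 0.57 ± 0.26 above sedentary pain (adjusted p = 0.154), with 3 of the 4 samples above the highest sedentary pain sample. Chrna1 had 21.3, 15.7, 25.9 and 21.3 CPM and a log2 difference of -0.50 ± 0.33 (adjusted p = 0.299), which was -0.06 without sedentary pain replicate 4. Musk, at 2.06 to 5.90 CPM, and Ncam1, at 2.75 to 5.97 CPM, overlapped sedentary pain.

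Between female active pain and control, 0 of the 8 genes and 0% of all 14511 passed in edgeR. At an unadjusted p under 0.05 there were 0 of the 8 genes and 7.03% of all genes, and DESeq2 called 0 of the 8 and 0.861% of all genes. Values that do not overlap were found for 0 of the 8 and 5.44% of all genes. The log2 differences of the genes that had changed with sedentary pain were 0.21 ± 0.12 for Chrnb1, -0.02 ± 0.41 for Chrnd, -0.20 ± 0.21 for Chrne, 0.70 ± 0.51 for Runx1 and -0.20 ± 0.26 for Scn4a. Runx1 was at 0.16 without active pain replicate 3. The plot of changes shows these beside the male values.

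**Figure D2:**
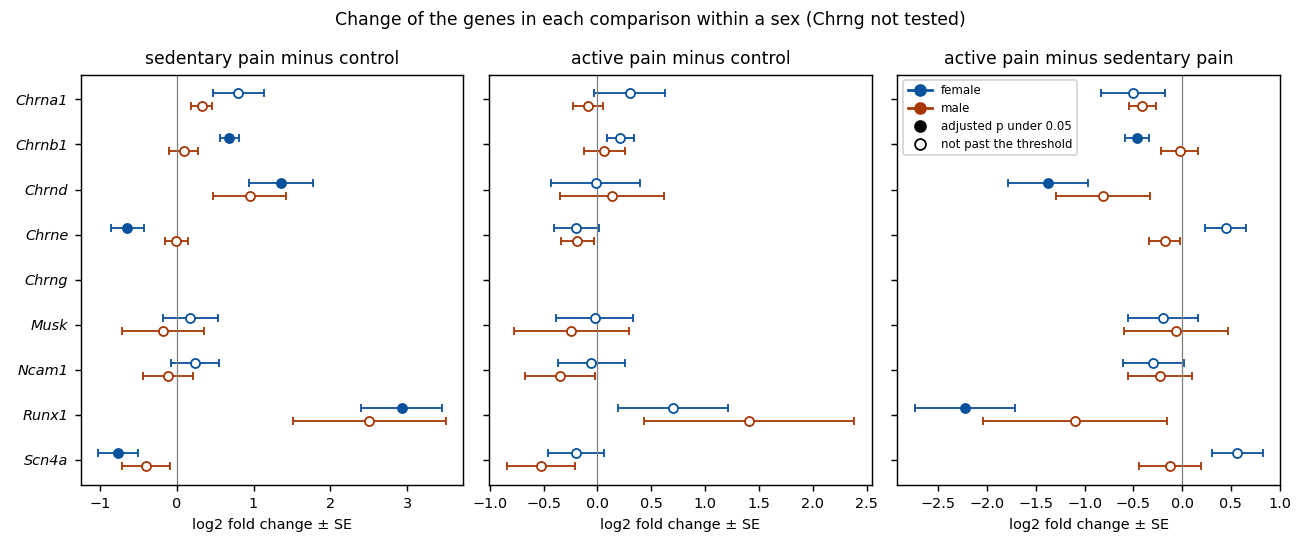
Log2 fold change with its standard error (horizontal axis) of each gene (rows) in the 3 comparisons within a sex, females in blue and males in brown; filled points passed an adjusted p under 0.05. Filled points appear in females alone: 5 genes for sedentary pain against control and 3 for active against sedentary pain. In these female comparisons 33.5% and 11.9% of all genes passed, and 0% did in each male comparison. None of the changes shown differed between the sexes past the threshold.

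In males none of the genes passed in any comparison. The counts were 0 of 8 genes and 0% of 14404 for sedentary pain against control, active pain against control and active against sedentary pain, in edgeR. DESeq2 also called 0 of the genes for which it gave an adjusted p, and gave none for Runx1. It called 1.87%, 0.882% and 0% of all genes in the 3 comparisons. At an unadjusted p under 0.05 there were 2 of the 8 genes for sedentary pain against control, Chrna1 and Runx1, against 8.84% of all genes, 0 for active pain against control, against 7.25%, and 1, Chrna1, for active against sedentary pain, against 0.84%. For 0 of the 8 genes were all active pain samples on 1 side of all controls, or of all sedentary pain samples, against 10.4% and 0.646% of all genes.

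Male Runx1 was set by single samples. Controls had 1.09, 2.03, 1.66 and 2.05 CPM, sedentary pain samples 32.1, 1.41, 2.20 and 2.88 CPM and active pain samples 2.20, 11.8, 1.88 and 2.37 CPM. Sedentary pain replicate 1 held the highest Runx1 level of all 24 samples, above each of the females, and the other 3 lay near the controls. The log2 difference from control was 2.51 ± 1.0 (adjusted p = 0.49), and 0.35 without replicate 1. For active pain it was 1.41 ± 0.98 (adjusted p = 0.634), and 0.34 without replicate 2. Active minus sedentary pain was -1.10 ± 0.94, and turned to 1.06 without sedentary pain replicate 1.

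The same sedentary pain sample was apart in other genes of the set. Its Chrnd was 5.74 CPM against 1.004, 1.86 and 1.38 CPM in the other 3 and 1.05 to 1.60 CPM in male controls, a log2 difference of 0.95 ± 0.48 for the group (adjusted p = 0.594) and 0.13 without it. Its Scn4a was 226 CPM against 562, 556 and 554 CPM. Male controls had 693, 642, 577 and 627 CPM of Scn4a, all above the 4 sedentary pain samples, and the log2 difference was -0.40 ± 0.32 (adjusted p = 0.646), or -0.17 without replicate 1. In male active pain Scn4a was 427, 224, 505 and 600 CPM, lowest in replicate 2, the sample with the high Runx1. Leukocyte markers summed to 672 CPM in sedentary pain replicate 1 and 383 CPM in active pain replicate 2; the part of these cells in the values was not tested.

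Chrna1 in males had 12.6, 13.3, 14.1 and 12.1 CPM in controls and 18.6, 14.6, 16.6 and 14.6 CPM in sedentary pain. The groups did not overlap, as for 8.07% of all tested genes, and the log2 difference of 0.33 ± 0.14 did not pass (adjusted p = 0.523). Active pain samples had 10.3, 11.4, 15.2 and 11.9 CPM. Chrnb1 was 26.2 to 31.9 CPM in controls, 23.8 to 36.5 CPM in sedentary pain and 21.3 to 37.4 CPM in active pain. Chrne, at 9.88 to 12.4, 9.63 to 13.4 and 8.35 to 12.6 CPM in the same order, overlapped in all 3 groups.

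Whether the changes differed between the sexes was tested in a fit of all 24 samples, where all 9 genes could be tested. None passed for any of the 3 changes, against 0% of 15103 genes each in edgeR, and DESeq2 called 0 of the 9 and at most 0.881% of all genes. For sedentary pain against control, the female minus male difference of the log2 change was 0.63 ± 0.23 for Chrnb1 (unadjusted p = 0.012, adjusted p = 0.442) and -0.60 ± 0.26 for Chrne (0.0329 and 0.482). Those were the 2 of the 9 genes with an unadjusted p under 0.05, against 9.57% of all genes. Runx1 gave 0.46 ± 1.14 (adjusted p = 0.893) and Chrnd 0.44 ± 0.65 (0.822), so their female calls are not shown to differ from the male values. Without male sedentary pain replicate 1 these became 2.61 (adjusted p = 0.0835) and 1.26 (0.15), and over all samples left out in turn Runx1 ranged from 0.10 and Chrnd from 0.08. For active against sedentary pain, 1 of the 9 genes, Chrne, had an unadjusted p under 0.05, against 14.7% of all genes, and for active pain against control 0 did, against 2.03%. In the former Chrne gave 0.60 ± 0.26 (adjusted p = 0.309), Chrnb1 -0.47 ± 0.23 (0.338) and Runx1 -1.17 ± 1.12 (0.607). Without male sedentary pain replicate 1 the last became -3.33 and passed (adjusted p = 0.0234). Over all samples left out in turn that Runx1 difference ran from -3.33 to -0.09.

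Musk (chromosome 4, 58285960 to 58374303) differed between the sexes more than with the pain model. Female controls had 3.16, 5.47, 2.58 and 3.91 CPM and male controls 26.3, 22.1, 13.3 and 24.3 CPM. The lowest male control had more than any female sample of the series. Male controls were higher by 2.51 ± 0.50 on the log2 scale, or 5.68-fold (adjusted p = 0.00636). Musk was the 1 gene of the 9 that passed between the controls, where 2.83% of 15103 genes did, 1.54% as higher and 1.28% as lower in males. At an unadjusted p under 0.05 there were 2 of the 9 genes, Musk and Scn4a, and 14.9% of all genes. Musk passed without any 1 of the 24 samples (log2 2.36 to 2.74) and with 1 surrogate variable (2.12). Within the same sets of library numbers the log2 ratio of the group means was 2.49 and 2.54 for the controls, 2.08 and 2.14 for sedentary pain and 0.88 and 3.09 for active pain.

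The same comparison within the pain groups was added after the control values were seen. Male sedentary pain samples had 9.45, 21.1, 20.3 and 24.0 CPM of Musk against 3.48, 3.74, 5.87 and 4.17 CPM in females, a log2 difference of 2.11 ± 0.49 (adjusted p = 0.00783). In active pain the males had 9.35, 5.24, 15.4 and 42.5 CPM and the females 2.06, 5.90, 2.20 and 4.59 CPM, a difference of 2.29 ± 0.50 (adjusted p = 0.0153). With 1 surrogate variable the log2 differences were 1.21 in sedentary (adjusted p = 0.0476) and 1.88 in active pain, and both passed. In active pain male replicate 2 lay below the highest female, and the call was lost without male replicate 4 (1.44, adjusted p = 0.121) or female replicate 1 (0.0664) or 3 (0.0785). In sedentary pain 5 of the 9 genes passed between the sexes, Musk, Chrne and Scn4a as higher in males and Chrna1 and Chrnb1 as lower, against 24.2% of all genes (10.6% higher and 13.6% lower). That count was 2 without female sedentary pain replicate 4 (4.7% of all genes) or without male replicate 2 (6.83%), 3 (7.77%) or 4 (9.39%), and 7 without male replicate 1 (54.1%). Of 10 leukocyte markers 7 were lower in males in sedentary pain, with a median log2 difference of -2.33, and their part in these differences was not tested. Musk alone passed in active pain, against 1.44% of all genes (0.887% higher and 0.55% lower). At an unadjusted p under 0.05 there were 6 of the 9 genes against 42.5% in sedentary pain and 2 against 10.7% in active pain. Groups did not overlap for 3 of the 9 genes against 6.54% of all genes in sedentary pain, and for 1, Chrna1, against 7.25% in active pain.

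Scn4a was also higher in male controls, where every sample exceeded every female control, but the log2 difference of 0.62 ± 0.30 did not pass (adjusted p = 0.336). Chrna1 was lower in male controls, 12.1 to 14.1 CPM against 15.0 to 20.7 CPM, at a log2 difference of -0.40 ± 0.27 (adjusted p = 0.488). Between the controls, values that do not overlap were found for Musk, Scn4a and Chrna1 and for 22.3% of all tested genes. Ncam1 (chromosome 9, 49502136 to 49798925) had 4.17 to 7.59 CPM in male and 3.09 to 5.68 CPM in female controls (log2 difference 0.44 ± 0.33, adjusted p = 0.529). Across all groups Ncam1 stayed between 2.67 and 8.45 CPM and never passed.

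To compare the subunits with each other, CPM was divided by the length of each gene's annotated exons in kilobases. In female controls Chrnb1 was highest with 11.2 ± 1.61 CPM per kb (SD, n = 4), followed by Chrne with 6.28 ± 0.344, Chrna1 with 3.90 ± 0.559, Chrnd with 0.579 ± 0.136 and Chrng with 0.0565 ± 0.0328. Male controls had the same order, with 11.4 ± 1.04, 6.86 ± 0.694, 2.96 ± 0.193, 0.396 ± 0.0713 and 0.0350 ± 0.0306 CPM per kb. Neighbours in the order lay more than their SDs apart. The place of Chrna1 and Chrne depends on the length used: per kilobase of coding sequence, an alternative added after the values were seen, Chrna1 had 12.5 ± 1.79 and Chrne 7.16 ± 0.393 in female controls, because much of the annotated exon length of Chrna1 is not coding.

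**Figure D3:**
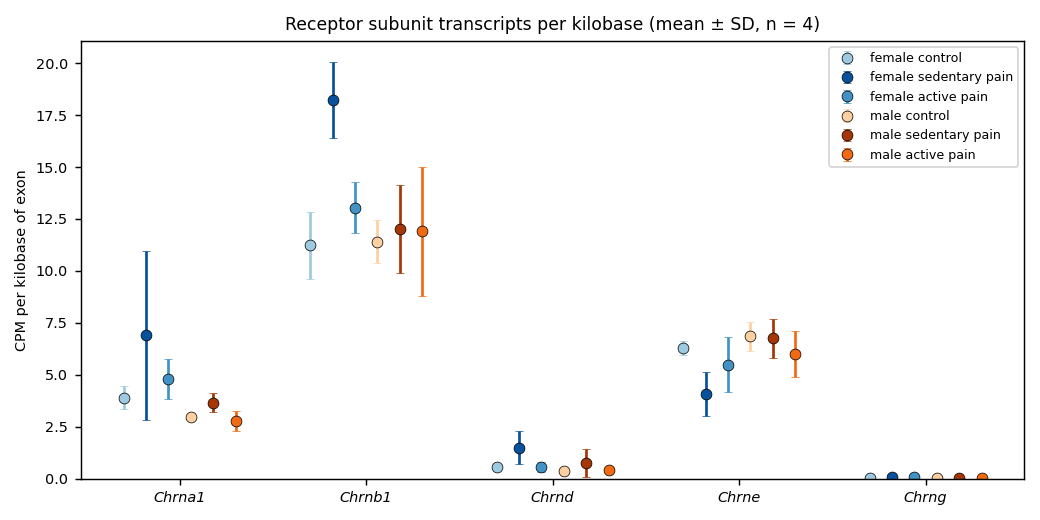
Level of the 5 receptor subunit genes per kilobase of annotated exon (vertical axis, linear, mean ± SD, n = 4) in the 6 groups. Chrnb1 is highest in all groups and Chrng near 0; in female sedentary pain Chrnb1 reaches 18.2 and Chrne falls to 4.08 CPM per kb.

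Ratios within a sample show the shift between the subunits without a scaling across libraries. The ratio of Chrnb1 to Chrne per kilobase of exon was 2.09, 1.71, 1.60 and 1.76 in the control females. With sedentary pain it was 4.003, 3.79, 6.20 and 4.66, and 2.05, 2.93, 2.53 and 2.25 in the active females. Sedentary pain samples lay above all others. In males it was 1.42 to 2.04 in controls, 1.46 to 2.08 in sedentary pain and 1.37 to 2.79 in active pain. The ratio of Chrna1 to Chrne was 0.581 to 0.724 in control females and at most 0.664 in any male sample. Sedentary females with pain had 0.779, 0.921, 2.58 and 2.95, and active females 0.679, 0.898, 1.16 and 0.853, of which 3 exceeded every control and overlapped sedentary pain. Chrng stayed under 0.07 of Chrne in every sample, with its highest ratio, 0.0689, in female active pain replicate 3. No test was made on these ratios.

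Of 22 tested genes of 24 listed for the junction's scaffold and signalling, 0 rose and 6 fell, against 19.6% of all genes higher and 13.9% lower in this comparison, with a median log2 fold change of -0.36 against -0.02 over all genes. The largest falls were in Sntb1, a syntrophin of the dystrophin complex, by 1.89 ± 0.29 (20.7 ± 3.95 to 5.66 ± 2.22 CPM, SD, n = 4, adjusted p = 0.0026), Lrp4, the agrin receptor that activates MuSK, by 0.98 ± 0.26 (7.78 ± 1.97 to 3.97 ± 0.938 CPM, adjusted p = 0.0164), and Utrn, utrophin, by 0.92 ± 0.32 (adjusted p = 0.0453). None of the 22 passed between active and sedentary pain, where 11.9% of all genes did, or between active pain and control, where 0% did.

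Other genes known to respond to denervation were listed as well, most of them as induced by it. Of 19 tested, 7 rose and 2 fell, against the same 19.6% higher and 13.9% lower over all genes, with a median of 0.39 against -0.02. By sign alone, whether or not they passed, 10 of the 19 were higher and 9 lower. Ankrd1, an ankyrin repeat protein of the sarcomere that also responds to stretch and injury, rose by 4.66 ± 0.61 on the log2 scale, from 7.44 ± 2.1 to 191 ± 72.5 CPM (adjusted p = 0.00251). Tnfrsf12a, the receptor of the cytokine TWEAK, rose by 2.95 ± 0.37 (adjusted p = 0.00225), and Cdkn1a, the cell cycle inhibitor p21 that many stresses induce, rose by 1.80 ± 0.47 (adjusted p = 0.016). Dach2, a repressor of myogenin that is itself known to fall after denervation, fell by 2.34 ± 0.83 from 1.12 ± 0.868 to 0.217 ± 0.216 CPM (adjusted p = 0.0472), and Gfra1, a receptor for the neurotrophic factor GDNF, fell by 0.91 ± 0.23 (adjusted p = 0.0141). Myog, the gene of myogenin, is given as well, chosen after its values were seen: it rose by 1.36 ± 0.26, from 7.92 ± 0.910 to 20.6 ± 9.11 CPM (adjusted p = 0.00413). Between active and sedentary pain 4 of the 19 passed, against 11.9% of all genes. Ankrd1 fell by 3.49 ± 0.57 (adjusted p = 0.0328), Tnfrsf12a by 2.47 ± 0.36 (0.0328) and Cdkn1a by 1.80 ± 0.47 (0.0353), and Gfra1 rose by 0.79 ± 0.23 (0.0452). In this comparison no gene passed with only the 2 groups fitted or with 1 surrogate variable, so these calls were lost there. Almost no gene passed without certain single samples, as given above.

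**Figure D4:**
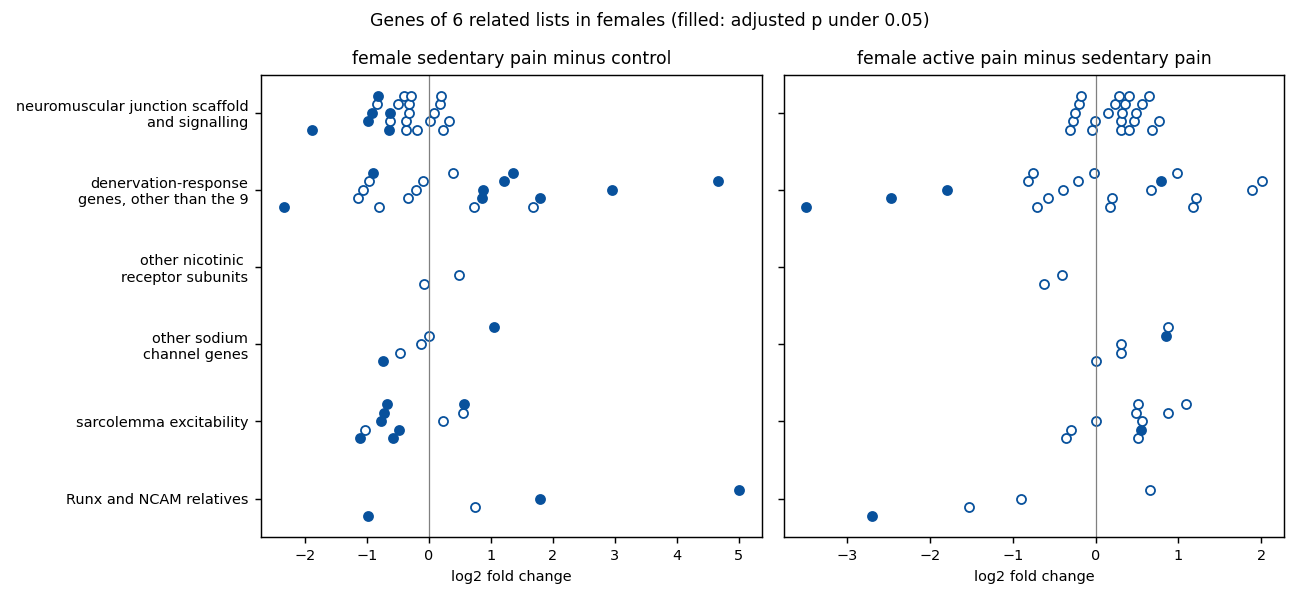
Log2 fold change (horizontal axis) of each tested gene of 6 related lists (rows) for female sedentary pain minus control (left) and active minus sedentary pain (right); filled points passed an adjusted p under 0.05. On the left, 6 scaffold and signalling genes fell and 0 rose, and of the denervation-response genes 7 rose and 2 fell.

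Of 10 tested genes of membrane excitability, 6 fell and 1 rose in female sedentary pain, against 13.9% of all genes lower and 19.6% higher, with a median of -0.63 against -0.02. Clcn1, the muscle chloride channel, fell by 1.11 ± 0.31 (137 ± 33.7 to 63.9 ± 28.4 CPM, adjusted p = 0.0193), Kcnj2, an inward rectifier potassium channel, by 0.78 ± 0.26 (adjusted p = 0.038), and Cacna1s, the voltage sensor of excitation and contraction coupling, by 0.72 ± 0.20 (adjusted p = 0.0187). Among 5 other tested sodium channel genes 2 passed, against 33.5% of all genes: the β subunit gene Scn4b fell by 0.75 ± 0.25 (adjusted p = 0.0373) and Scn3b rose by 1.04 ± 0.29 (adjusted p = 0.0205). Between active and sedentary pain, where 11.9% of all genes passed, Scn4b rose by 0.85 ± 0.25 (adjusted p = 0.0453) and Cacnb1, a calcium channel subunit, by 0.55 ± 0.15 (adjusted p = 0.0379). Both calls have the limits given above for that comparison. Of 11 other nicotinic receptor subunit genes, 2 had enough counts to be tested in females, Chrna9 with 0.433 to 2.20 CPM in controls and 0.605 to 3.31 CPM in sedentary pain and Chrnb2 with at most 0.601 CPM, and neither passed.

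Of 4 tested relatives of Runx1 and Ncam1, 3 passed in female sedentary pain, against 33.5% of all genes. Runx3 rose by 5.00 ± 0.82 on the log2 scale (0.109 ± 0.0550 to 3.78 ± 2.69 CPM, adjusted p = 0.00285) and Runx2 by 1.79 ± 0.49 (adjusted p = 0.019), and Cbfb, the partner subunit that RUNX proteins need to bind DNA, fell by 0.99 ± 0.21 (104 ± 18.3 to 52.8 ± 13.6 CPM, adjusted p = 0.00698). The control level of Runx3 was at the limit of detection, as 3 counts equal 0.0917 to 0.13 CPM in the female controls, so its fold size is uncertain. RUNX3 is best known from lymphocytes. Between active and sedentary pain, Runx3 fell by 2.70 ± 0.68 (adjusted p = 0.0333), a call with the limits given above for that comparison. In males 0 genes of the 6 lists passed in any comparison within the sex, where 0% of all 14404 genes did.

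Between the controls, 2 of 20 tested denervation-response genes, 1 of 3 nicotinic receptor genes and 1 of 7 sodium channel genes passed, and 0 of the other 3 lists, against 2.83% of all genes. Male controls were higher in Eda2r, a receptor of the TNF receptor family, by 1.57 ± 0.31 (13.7 ± 1.87 in females, 40.6 ± 10.1 CPM in males, adjusted p = 0.00636) and in Scn3b by 1.09 ± 0.27 (adjusted p = 0.027). They were lower in Myog by 0.92 ± 0.24 (7.92 ± 0.910 in females, 4.17 ± 0.646 CPM in males, adjusted p = 0.04) and in the nicotinic subunit gene Chrna9, with 10 to 72 counts in females and 2 to 5 in males (adjusted p = 0.00636). Adipocyte markers summed to 195, 152, 2694 and 1144 CPM in female control replicates 1 to 4, of which replicates 3 and 4 stood apart, and 1 of 5 was lower in male controls, with a median log2 difference of -2.23. Their part in these differences was not tested.

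Markers of other cell types were compared beside these groups of genes, in the comparison where 33.5% of all genes passed, 19.6% higher and 13.9% lower. All 10 tested leukocyte markers rose in female sedentary pain, with a median log2 fold change of 4.6, and 8 of the 10 were lower in active than in sedentary pain, a comparison in which 9.41% of all genes were. Calls in the latter comparison have the limits given above. Of 12 muscle fibre markers 3 fell (Myh2, Ryr1 and Ttn) and 1 rose (Des). Of 10 tested Schwann cell and nerve markers 0 passed, and Gfap stayed under 0.5 CPM in all samples. Satellite cell markers, led by Cdh15, at 46.3 to 65.2 and 50.5 to 87.8 CPM, had 0 of 5 passing. Adipocyte markers, led by Fabp4, fell in 4 of 5 cases, with sums of 152 to 2694 CPM in controls and 135 to 296 CPM in sedentary pain. Of 5 fibroblast markers, led by Dcn, 1 rose, and Tcf21 of that list was under 0.5 CPM in all samples. Of 5 endothelial markers, led by Pecam1, 2 fell. The part of these cell types in the changes of the 9 genes was not tested.

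**Figure D5:**
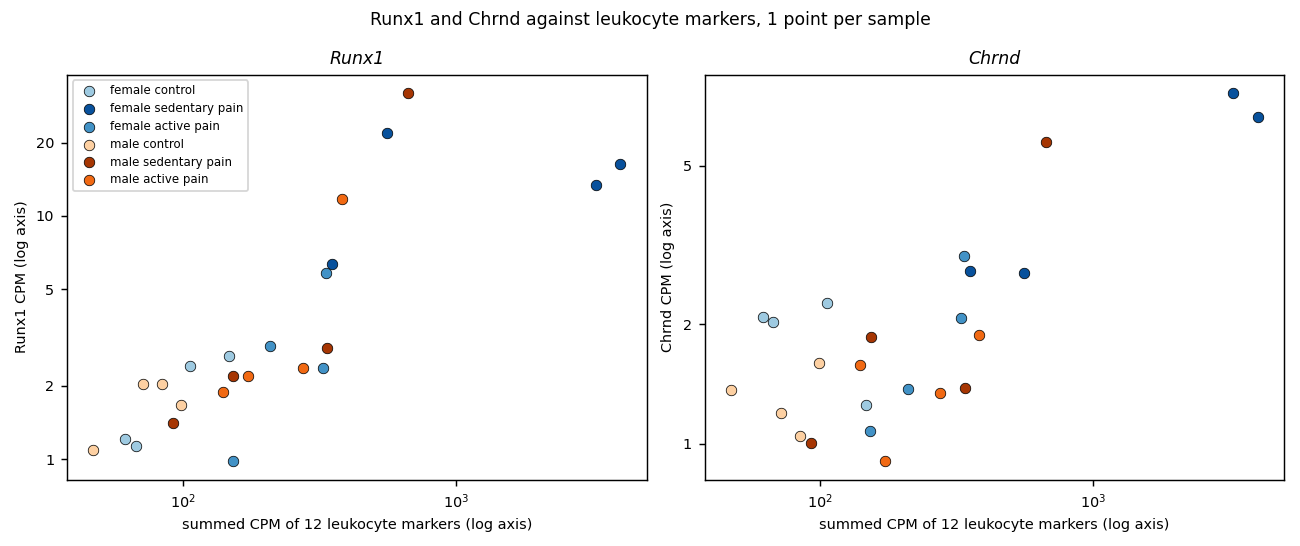
Level of Runx1 (left) and Chrnd (right) in CPM against the summed CPM of 12 leukocyte markers, all axes logarithmic, 1 point per sample coloured by group. The sample with the highest Runx1, 32.1 CPM, is male sedentary pain replicate 1, whose 672 CPM of markers is the highest of its group. Female sedentary pain samples lie above female controls on both axes, and their Runx1 is 6.35, 22.0, 13.4 and 16.3 CPM at 353, 559, 3256 and 4013 CPM of markers.

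The genes most like each of the 9 across the 24 samples were listed by Pearson correlation of log2 CPM over 15103 genes, as a description of samples that share condition, sex and cell composition. Runx1 was closest to Sbno2 and Tuba1c (r = 0.964 each) and Scn4a to Nfic (0.989) and Cux1 (0.986). Musk was closest to Fam20b (0.950) and Cdk19 (0.946), Chrna1 to Gramd1a (0.911) and Smap2 (0.898), Chrnb1 to Stk11ip (0.899) and Tbrg1 (0.889), and Chrnd to Actg1 (0.908) and Sik1 (0.902). Weaker matches were Fzd8 (0.874) and Cmss1 (0.800) for Chrne, Cilp (0.835) and Eps15l1 (0.765) for Ncam1 and Mymk (0.745) and Sln (0.703) for Chrng, whose counts are few. Among the 9 themselves, r was 0.755 between Chrna1 and Chrnd, 0.771 between Chrnd and Runx1 and -0.802 between Runx1 and Scn4a, and Chrne was negatively related to Chrna1 (-0.436), Chrnb1 (-0.415) and Chrnd (-0.550).

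The counting could have joined reads of overlapping genes. In the GENCODE M21 annotation (GRCm38) Chrne, Ncam1 and Runx1 each overlap 1 gene on the opposite strand, and these 3 had at most 0.0917 CPM in any sample. The files do not say whether strand was used, so reads of the pairs cannot be told apart if it was not.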

How the data were processed

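The deposited files hold whole-number counts per Ensembl gene for 24 samples of gastrocnemius RNA (stranded library kit, paired reads, per the labels' protocols). The submitters' processing notes name HISAT2 2.1.0, Salmon 0.9.1, featureCounts, DESeq2 1.24.0 and the builds mm10 and GRCm38.p6, without roles. Whether strand was used in counting is not given in the sources used here.

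Groups were taken from the sample titles. Genes were kept by edgeR's filter (minimum count 10) and tested with edgeR 4.0.16 (R 4.3.3) by the robust quasi-likelihood F test with trimmed mean scaling. The 12 samples of a sex were fitted together for changes within it, and all 24 for sex differences. Adjusted p-values are Benjamini-Hochberg values over all genes tested (threshold 0.05). Levels are CPM with the same scaling over 24 samples, and correlations used log2 CPM with a prior count of 2. Exon lengths and positions are from GENCODE M21. The script was tested on simulated data. Alternatives used DESeq2 1.42.0, sva 3.50.0, another scaling, no filter, no robust step, a GC and length correction, a block by replicate number, a split of the library numbers chosen here, and each sample left out in turn. The depths (17612139 to 34039699 counts) limit Chrng, Chrnd and Runx1, whose counts are low.

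Named genes were the 9 in every comparison, up to 3 largest rises and 3 largest falls past the threshold in each related list, and the 2 genes most correlated with each of the 9. From each marker list the gene of highest mean and those under 0.5 CPM in all samples were named. Some genes that this rule names are not reported here. The members, lists, markers and motifs were chosen with earlier results of these data known. Same-numbered replicates are not treated as pairs because the labels give no shared source. Their residuals correlated at over 0.1 in 6 of 12 female and 3 of 12 male pairs. The range was -0.305 to 0.394 in females and -0.652 to 0.574 in males, which does not settle whether they share a source.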

Additional observations from a re-analysis of the deposited data

Results flagged for a closer look

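In 54 groups of 4 samples, 1 group for each of the 9 genes and each condition and sex, the highest or lowest sample was compared with its neighbours. A sample was listed where its gap to the nearest other, divided by the range of the group, passed Dixon's 95% critical value, which chance reaches in about 1 of 20 groups. There were 5 such values.

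Runx1 was 32.07 CPM in male sedentary pain replicate 1 (gap over range 0.952), where the others had 1.41 to 2.88 CPM. The same library had the lowest Scn4a of its group, 225.5 CPM (0.976). Runx1 was 11.76 CPM in male active pain replicate 2 (0.95), against 1.88 to 2.37 CPM in the others. Chrng was 1.464 CPM, from 38 counts, in female active pain replicate 3 (0.958). Chrng was also low, 0.03057 CPM from 1 count, in female control replicate 4 (0.936), where the others had 7 or 8 counts.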

How the results depend on the processing

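Alternatives were run gene by gene for the changes of the 9 genes, except that between the sexes within pain groups they were run for Musk alone. Of these changes 11 passed the threshold. Of 283 alternatives to them, 214 kept direction and call, 68 lost the call and 1 reversed. Of 2068 alternatives to the 75 others, 6 gained a call and 110 turned direction without one. For female sedentary pain against control, 5 of the 8 genes passed, 0 with 1 surrogate variable, 3 with only those 2 groups fitted and 2 to 6 with a sample left out (2 without sedentary pain replicate 3, 6 without replicate 1). All genes past the threshold numbered 4867, then 114 with the surrogate variable, 2847 with only the 2 groups and 2486 (without sedentary pain replicate 4) to 6674 (without replicate 1). The surrogate variable reversed Chrna1 (-0.461), Ncam1 (-0.131) and Scn4a (0.108). For active against sedentary pain in females, 3 of the 8 genes became 0 with no low-count filter, the surrogate variable or only the 2 groups, and 0 to 3 with a sample left out. All genes went from 1730 to 3010 with DESeq2, 174 with no filter, 2745 with the split by library number as a term, 0 with the surrogate variable or only the 2 groups, and 0 (without active pain replicate 1) to 4316 (without sedentary pain replicate 1). The split was 364 higher and 1366 lower, 862 and 1883 with the split by library number and 817 and 1626 with the GC and length correction with replicate block. The surrogate variable reversed Chrna1 (0.516) and Scn4a (-0.130). For female active pain against control, 0 genes became 125 with DESeq2, 10 with the surrogate variable and 1 with the GC and length correction with replicate block, and Chrnd ran from -0.342 (without active pain replicate 3) to 0.153 (without replicate 1). In males, 0 genes became 270 (DESeq2) and 5 (surrogate variable) for sedentary pain against control, with Runx1 (-0.131) and Scn4a (0.067) reversed by the latter, and 127 and 6 for active pain against control, with Runx1 reversed (-0.406). Runx1 in active against sedentary males ran from -2.168 (without active pain replicate 2) to 1.055 (without sedentary pain replicate 1). Sex differences of all genes went from 0 to 15, 3 and 133 with DESeq2 for sedentary pain against control, active pain against control and active against sedentary pain, and to 0 to 18, 0 to 1 and 0 to 2174 with a sample left out (2174 without male sedentary pain replicate 1, where 1 of the 9 genes passed, against 0 elsewhere). Between the controls 427 genes became 720 with DESeq2, 804 with the surrogate variable and 198 to 622 with a sample left out. Between sedentary pain males and females, 5 of the 9 genes became 2 with the surrogate variable (10.8% of all genes) and 2 to 7 with a sample left out (4.7% to 54.1%), and in active pain 1 became 0 to 2 (1.02% to 1.98%). With the replicate block, 4 of the 8 genes passed for female sedentary pain against control (Chrne was lost, adjusted p = 0.0556) and 2 for active against sedentary pain (Chrnb1 was lost, 0.0555), and all genes past the threshold numbered 3739 and 1629. With the GC and length correction with replicate block, Chrnd in sedentary pain against control was at 0.99 (0.0577). The cause of these shifts was not tested. Coding lengths from protein sequences were not run.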
